A study of Mus musculus with 4 samples.

Results

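The proteasome genes were taken as all rows of the deposited tables whose gene symbol begins with Psm, a letter from a to g and a number. This rule found 53 of the 33924 gene symbols. They comprise 8 symbols of the alpha ring and 7 of the constitutive beta ring of the 20S core, 4 immunoproteasome and thymoproteasome beta subunits, 6 ATPases and 11 other subunits of the 19S regulatory particle, 4 subunits of activators, the regulator Psmf1, and 7 assembly chaperones (3 for the 19S particle and 4 for the 20S core). The rule also takes in 4 pseudogene symbols and Psmc3ip, which is not a proteasome subunit and had no count. Counts were compared between livers of male C57BL6 mice (C57BL/6Rj in the study's methods) that carried no transgene and received no treatment. The 4 groups were Young (3 months), Adult (9 months), Old (15 months) and Very old (21 months). For each age there was 1 library only, for which 1 μg of RNA from each of 24 mice (4 mice at each of 6 times of day) had been pooled. There are thus no replicates, the day rhythm is averaged out, and age and library cannot be told apart.

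The proteasome is the chamber in which cells break down proteins that have been tagged with ubiquitin. Its 20S core is a stack of rings, with outer alpha rings that form the gate and inner beta rings that hold the cutting sites. In the constitutive core these sites sit on Psmb5, Psmb6 and Psmb7, and after interferon signals the subunits Psmb8, Psmb9 and Psmb10 can take their places in newly made particles, which form the immunoproteasome. The 19S regulatory particle binds ubiquitin chains, removes them and unfolds the substrate with a ring of ATPases, whereas the 11S and PA200 activators open the gate without ATP. In the liver, the proteasome takes part in the turnover of short-lived regulatory proteins, among them components of the circadian clock.

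The libraries held the 5’-ends of capped RNA, which places the reads close to the promoters of these genes. RefSeq promoters (GRCm38.p6, 250 bases before the annotated start) were found for 41 of the 53 symbols, and 5 are printed because the results turn on them: 3 constitutive beta subunits that differed between libraries (Psmb4, Psmb5 and Psmb6), the most abundant member with even counts (Psmc6), and an immunoproteasome subunit (Psmb8). They lie at chr3:94886959-94887208 (minus strand), chr14:54617996-54618245 (minus), chr11:70525107-70525356 (plus), chr14:45329574-45329823 (plus) and chr17:34197945-34198194 (plus), in the order given here. Capitals mark matches to the motifs that were searched on both strands.
Psmb4: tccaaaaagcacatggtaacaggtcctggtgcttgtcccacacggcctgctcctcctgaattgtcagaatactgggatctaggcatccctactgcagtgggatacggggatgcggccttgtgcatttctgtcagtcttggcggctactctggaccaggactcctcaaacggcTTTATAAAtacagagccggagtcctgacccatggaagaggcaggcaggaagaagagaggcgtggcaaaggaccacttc
Psmb5: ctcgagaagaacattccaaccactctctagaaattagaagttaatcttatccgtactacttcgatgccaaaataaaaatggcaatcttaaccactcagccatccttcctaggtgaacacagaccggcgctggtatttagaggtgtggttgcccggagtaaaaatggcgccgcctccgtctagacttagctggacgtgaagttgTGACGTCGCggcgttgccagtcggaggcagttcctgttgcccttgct
Psmb6: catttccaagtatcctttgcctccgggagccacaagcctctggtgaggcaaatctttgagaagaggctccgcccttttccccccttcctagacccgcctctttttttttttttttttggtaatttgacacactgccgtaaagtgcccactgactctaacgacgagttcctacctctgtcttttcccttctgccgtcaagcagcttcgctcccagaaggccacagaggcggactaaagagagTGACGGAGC
Psmc6: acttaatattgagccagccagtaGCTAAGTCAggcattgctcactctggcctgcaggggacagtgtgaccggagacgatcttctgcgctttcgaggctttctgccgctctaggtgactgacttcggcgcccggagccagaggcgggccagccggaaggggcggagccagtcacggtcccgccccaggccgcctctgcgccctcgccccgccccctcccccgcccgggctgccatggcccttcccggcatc
Psmb8: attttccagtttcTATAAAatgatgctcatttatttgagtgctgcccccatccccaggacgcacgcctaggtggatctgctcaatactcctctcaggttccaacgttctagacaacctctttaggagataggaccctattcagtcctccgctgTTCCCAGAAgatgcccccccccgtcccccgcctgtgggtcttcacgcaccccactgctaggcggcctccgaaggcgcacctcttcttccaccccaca
The capitals in Psmb5, Psmb6 and Psmc6 are matches to TGACNNNGC, the core of the antioxidant response element to which the Nrf family of factors binds. They begin 47 bases before the start in Psmb5, 9 bases before it in Psmb6 and 227 bases before it, on the opposite strand, in Psmc6. This motif was found in 5 of the 41 member promoters (Psmb5, Psmb6, Psmc6, Psmd9 and Psmd12) and in 10.1% of all 27025 promoters. In Psmb8, the match nearer to the start is to TTCNNNGAA, the interferon-gamma activated site, and begins 97 bases before the start. Psmg1 was the other of 2 members with this motif, which 7.18% of all promoters hold. The interferon-stimulated response element, searched as GAAA, any 2 bases and GAAA again, was found in 3 members (Psmb3, Psmd4 and Psmd9) and in 3.04% of all promoters. CCAAT was found in 15 members and in 34.5% of all promoters. The remaining capitals, in Psmb4 and at the far end of Psmb8, are TATAAA, which 4 members (Psmb4, Psmb8, Psmd1 and Psmd6) and 13.0% of all promoters hold. In Psmb4 it reads on both strands in overlapping positions. The member promoters had a median GC content of 57.6%, against 52.0% over all promoters.

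The libraries held 955934, 958586, 525772 and 735962 counts on genes at 3, 9, 15 and 21 months, of which 1796, 1583, 861 and 1197 fell on members. A count of 3, taken here as the upper limit that a count of 0 allows, corresponds to between 3.13 and 5.71 CPM (counts per 1000000 counts on genes). Between 72.2% (3 months) and 76.7% (9 months) of the records were not uniquely aligned and stayed out of the counts, and between 6.67% (15 months) and 8.42% (3 months) of all records fell on genes. Of the 53 members, 5 had no count in any library (Psmc3ip, Psmb5-ps, Psmb6-ps, Psmb7-ps2 and the thymus-specific beta subunit Psmb11), 13 had between 1 and 39 counts in all, and 35 had at least 40 and were compared. Hepatocyte markers made up between 77380 and 89695 scaled CPM (CPM of the library size after scaling with TMM factors) in each library, and 7 of the 8 differed between libraries beyond counting noise by the chi-square test described below. Of all 5090 genes with at least 40 counts, 36.9% did. Where counts are high, small differences pass, as for Apoa1 (ratios over 3 months of 0.937, 1.05 and 0.970 at 9, 15 and 21 months). Kupffer cell and macrophage markers summed to between 719.6 and 936.2 scaled CPM (5 of 8 differed), sinusoidal endothelial markers to between 488 and 629 (4 of 6), and stellate cell markers to between 331 and 588 (2 of the 3 tested, of 6). Leukocyte markers summed to between 119 and 215, most of it Cd74 (47 of 64 counts at 15 months), which differed between libraries. Ptprc had between 8 and 11 counts in each library, while Cd3e, Cd3g, Cd8a, Cd79a and Cd79b had between 0 and 3 counts each. In a whole liver, fewer cells of a type and less RNA per cell cannot be told apart.

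For all members together, the summed level was 1876, 1716, 1597 and 1608 scaled CPM at 3, 9, 15 and 21 months. The 21 month library thus held 0.857 times the 3 month level, with a 95% exact interval from 0.796 to 0.923, which covers counting error between these 2 libraries only. Without Psmb2 and Psmb4 the ratio was 0.931 (0.862 to 1.01). Over the 35 members compared, the median ratio of 21 over 3 months was 0.869 and 24 members were below 1. Over all 5090 genes with at least 40 counts, the median was 0.995 and 50.3% were below 1. At 9 and 15 months the medians of members over 3 months were 0.838 and 0.837, so that the 3 month library was on the high side in each comparison. These 3 comparisons share the 3 month library. Between 21 and 15 months, the median was 1.01, with 18 members above and 17 below 1.

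Straight lines in age were fitted to all genes by means of edgeR's quasi-likelihood test, which, unlike the tests of counts that follow, estimates a spread between libraries. With 1 library per age, this spread comes from departures from a straight line, on 2 residual degrees of freedom, and not from replicates. A gene that moves and comes back is therefore not called. None of the 34 members tested passed, against 6 of 5569 genes (0.108%), 3 of which fell (0.0539%), and DESeq2 called none as well. At an unadjusted p under 0.05 there were 3 members, Psmb2, Psmd8 and Psmb4, all with negative slopes, against 5.21% of all genes, and DESeq2 gave 1. The slope of Psmb2 amounted to -2.02 on the log2 scale over 18 months (edgeR adjusted p = 0.103), that of Psmd8 to -1.37 (edgeR adjusted p = 0.646) and that of Psmb4 to -1.07 (edgeR adjusted p = 0.841). The median slope over members was -0.14 on the log2 scale over 18 months, and turned to 0.26 without the 3 month library, while the median over all genes was -0.00088.

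The question whether the 4 counts of a gene differ by more than counting noise was addressed with Pearson's chi-square test against the library sizes, with Benjamini-Hochberg adjustment over all genes with at least 40 counts. It compares these libraries and not the ages, because pools were not repeated. Of the 35 members, 11 passed (Psma6, Psmb2, Psmb4, Psmb5, Psmb6, Psmc3, Psmd8, Psmd12, Psme3, Psme4 and Psmf1), whereas 36.9% of all 5090 genes did. The share of members is hence close to the background. The constitutive beta ring held 4 of the 11, the alpha ring 1, the 19S ATPases 1, the other 19S subunits 2, the activators 2 and Psmf1 the last. Neither of the 2 immunoproteasome subunits with enough counts, Psmb8 and Psmb10, was among them, and 2 genes are too few to set against the background.

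**Figure D1:**
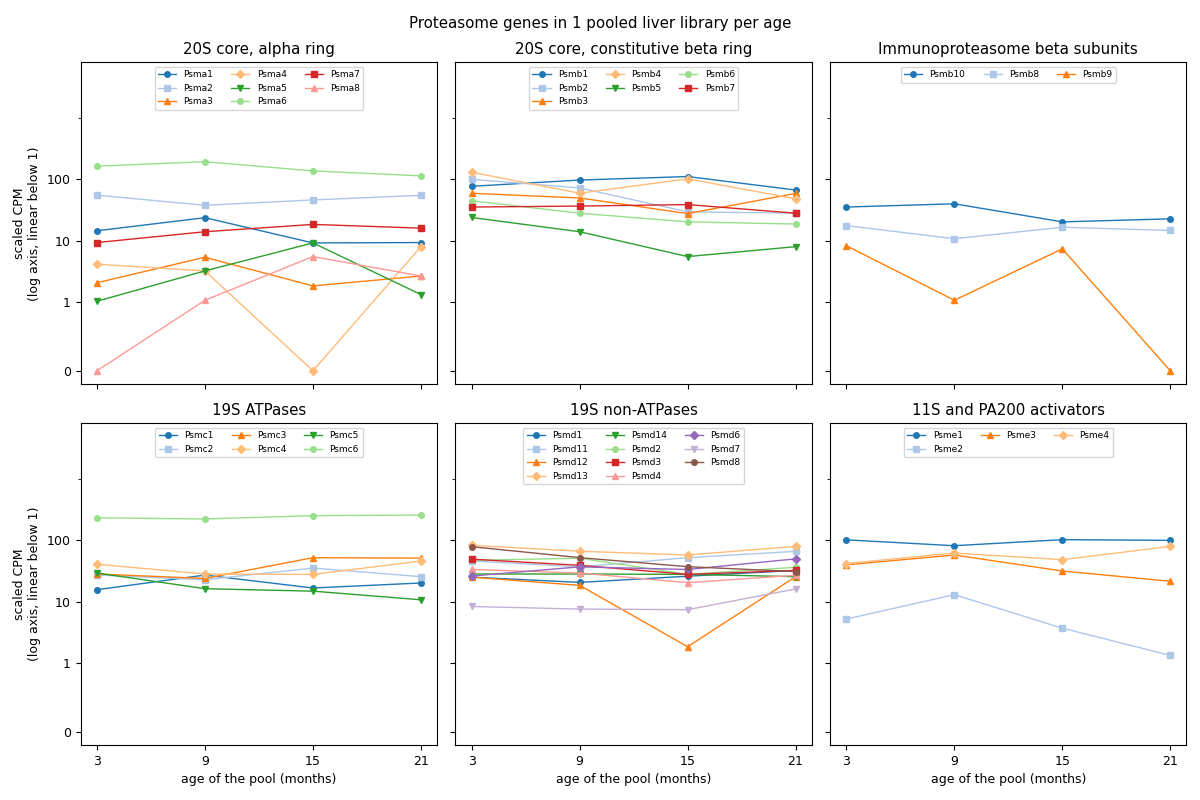
Scaled CPM of each proteasome gene with counts (y axis, logarithmic above 1 and linear below) against the age of the pool in months (x axis), in 6 panels by subcomplex; each point is 1 pooled library. Psmc6 and Psma6 lie above all others of their panels at every age, Psmb2 descends from 100.3 to 28.2, and Psmd12 drops to 1.85 at 15 months only.

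The constitutive beta ring had the lowest summed ratio of 21 over 3 months among the subcomplexes. Its 7 genes summed to 472, 359, 336 and 258 scaled CPM at 3, 9, 15 and 21 months. All 7 had a ratio of 21 over 3 months below 1, where 50.3% of all genes did. The ratios of Psmb1 (0.869), Psmb3 (0.993) and Psmb7 (0.794) had intervals that include 1. The summed ratio was 0.546 (95% exact interval 0.459 to 0.648). Without Psmb2 and Psmb4, which the sum leans on, it was 0.752 (0.603 to 0.934).

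Psmb2, a structural beta subunit on chromosome 4 (126354874 to 126386958, plus strand, NCBIM37), had 96, 67, 16 and 21 counts, or 100.3, 72.6, 29.7 and 28.2 scaled CPM. Both younger libraries were above both older ones. The 21 month library was at 0.281 times the 3 month level (0.167 to 0.455, exact binomial adjusted p = 2.8e-07), and the 15 month library at 0.296 times (0.163 to 0.506, exact binomial adjusted p = 1.6e-05). Psmb2 was among 6 members lower at 15 than at 3 months by this test, where 8.07% of all genes were lower, and among 6 members lower at 21 than at 3 months, where 8.27% were lower. It held its chi-square call without any 1 library.

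Psmb4 (chromosome 3, 94688015 to 94690883, minus strand, NCBIM37), another structural beta subunit, had 125, 55, 55 and 36 counts, or 131, 59.6, 102 and 48.4 scaled CPM. It went down, up and down again, so that no order by age holds over all 4 libraries. It was the only member lower at 9 than at 3 months (0.457 times, 0.326 to 0.632, exact binomial adjusted p = 1.7e-05), where 8.72% of all genes were lower and 7.9% higher. It was also lower at 21 than at 3 months (0.370 times, 0.248 to 0.540, exact binomial adjusted p = 7.7e-07) and at 21 than at 15 months (0.474 times, 0.302 to 0.735, exact binomial adjusted p = 0.0077), where 5.85% of all genes were lower. Like Psmb2, it kept its chi-square call without any 1 library.

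The catalytic subunit Psmb5, with chymotrypsin-like activity, had 23, 13, 3 and 6 counts. The 15 month library was at 0.232 times the 3 month level (0.0445 to 0.767, exact binomial adjusted p = 0.048), a call that ended with library totals as the scale or with more genes tested. Every 35-base window near the 5’-ends of its transcripts also matches another place in the genome, so that its counts are uncertain. Psmb6, with caspase-like activity, had 43, 26, 11 and 14 counts, lower at each of both older ages than at the younger ones, and 0.419 times the 3 month level at 21 months (0.212 to 0.780, exact binomial adjusted p = 0.025). Psmb7, with trypsin-like activity, had 34, 34, 21 and 21 counts, or 35.5, 36.9, 38.9 and 28.2 scaled CPM, and did not pass the chi-square test (adjusted p = 0.77).

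Of the structural subunits that remain, Psmb3 had 57, 46, 15 and 44 counts, and only the 15 month library was low (0.467 times the 3 month level, 0.246 to 0.837, exact binomial adjusted p = 0.044), a call that ended with library totals as the scale (adjusted p = 0.057 by the same exact test) or with more genes tested (adjusted p = 0.060). Of its windows at the 5’-end, 75.8% match elsewhere in the genome. Psmb1 had 74, 90, 60 and 50 counts, or 77.3, 97.6, 111 and 67.2 scaled CPM, with its highest level at 15 months (chi-square adjusted p = 0.064). Per kilobase of the longest coding transcript, the mean level over the 4 libraries ranged within the ring from 14.9 scaled CPM (Psmb5) to 85.3 (Psmb1), although each subunit has the same number of places in the particle. Reads came from 5’-ends, so this scale divides out more length than the reads cover.

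**Figure D2:**
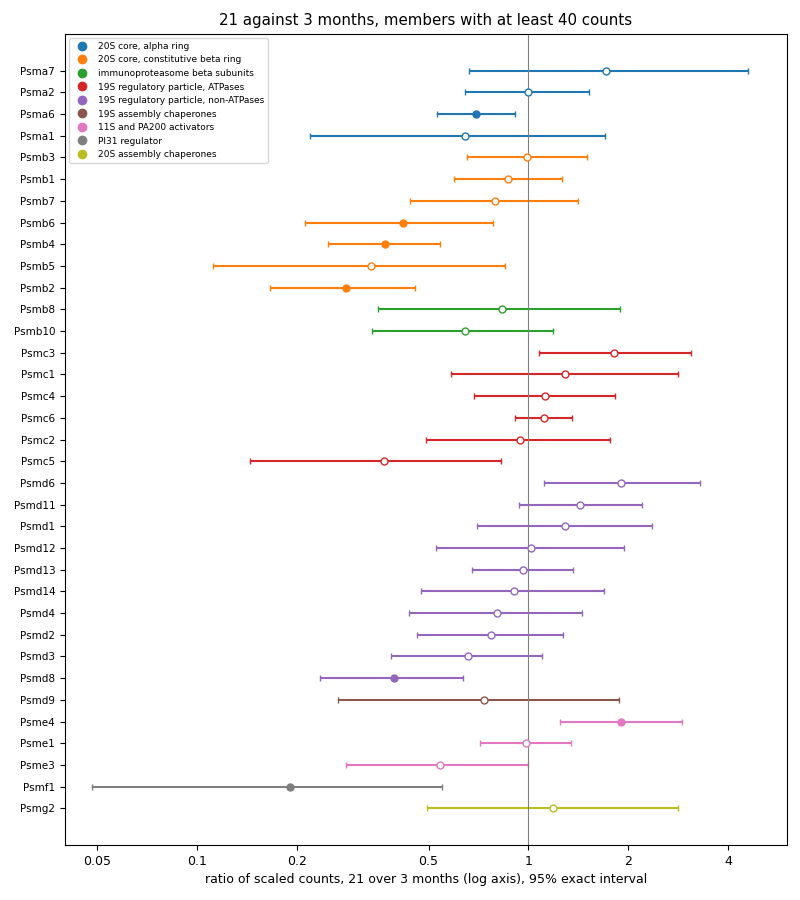
Ratio of scaled counts of the 21 month over the 3 month library (x axis, logarithmic) for the 35 members with at least 40 counts (y axis, coloured by subcomplex and sorted within it); bars are 95% exact intervals for counting error between these 2 libraries, and filled points passed the exact binomial test. The 7 constitutive beta genes lie left of 1, from 0.281 to 0.993, and Psme4 is the only filled point to the right, at 1.90.

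The alpha ring summed to 251, 283, 228 and 209.5 scaled CPM, and its ratio of 21 over 3 months was 0.836 with an interval that includes 1 (0.679 to 1.03). The exact Poisson intervals at 9 months (249.7 to 319.4) and at 21 months (177.9 to 245.1) do not overlap. Most of this sum was Psma6, which had 157, 179, 74 and 85 counts, or 164, 194, 137 and 114 scaled CPM. It was highest at 9 months and lowest at 21 months, and passed the chi-square test (adjusted p = 0.0022). The 21 month library was at 0.696 times the 3 month level (0.528 to 0.912, exact binomial adjusted p = 0.049), a call that ended with library totals as the scale or with more genes tested. The alpha ring without Psma6 had 86.7, 88.9, 90.9 and 95.4 scaled CPM, with a ratio of 1.10 (0.790 to 1.53).

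Of the other alpha genes, Psma2 had 53, 35, 25 and 41 counts, Psma1 14, 22, 5 and 7 and Psma7 9, 13, 10 and 12, and none of them passed. Psma3 (10 counts in all), Psma4 (13), Psma5 (10) and Psma8 (6), the germ cell counterpart of Psma7, were below the minimum. The windows at the 5’-ends of Psma2, Psma3 and Psma4 match elsewhere to 57.6%, 74.1% and 50.3%, so that their counts are uncertain. Per kilobase, Psma6 had the highest mean level of all members with 146 scaled CPM, followed by Psmc6 with 110 and Psme1 with 86.3. This scale divides out more length than reads from 5’-ends cover. Without the division, Psmc6 came first with a mean of 239.7 scaled CPM, followed by Psma6 with 152.4.

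In the immunoproteasome, the beta subunits had 59, 48, 24 and 28 counts in sum. This amounts to 61.6, 52.0, 44.5 and 37.6 scaled CPM, and the ratio of 21 over 3 months was 0.610 (0.375 to 0.973). Psmb8, the counterpart of Psmb5, lies on chromosome 17 (34334666 to 34338399, plus strand, NCBIM37) near Psmb9 (34318932 to 34324709, minus strand), inside the major histocompatibility region. It had 17, 10, 9 and 11 counts (chi-square adjusted p = 0.71). Psmb9, the counterpart of Psmb6, had 8, 1, 4 and 0 counts, and the 0 at 21 months allows a level of up to 4.08 CPM, so that it was too low to be compared. Its exons overlap with those of Tap1 on the opposite strand. Psmb10, the counterpart of Psmb7, was the most abundant of the group with 34, 37, 11 and 17 counts, or 35.5, 40.1, 20.4 and 22.8 scaled CPM. Both younger libraries were above both older ones, but Psmb10 did not pass (chi-square adjusted p = 0.16).

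To ask whether the immunoproteasome gains weight against the constitutive sites, the counts of Psmb8, Psmb9 and Psmb10 were divided by those of all 6 catalytic beta genes, a share that does not depend on the scale between libraries. It was 37.1% at 3 months (95% exact binomial interval 29.6 to 45.1), 39.7% at 9 months (30.9 to 49.0), 40.7% at 15 months (28.1 to 54.3) and 40.6% at 21 months (28.9 to 53.1). The intervals overlap throughout, so a change of this share was not detectable at this depth. Psmb8 made up 42.5%, 43.5%, 75.0% and 64.7% of the counts of Psmb8 and Psmb5, with 12 and 17 counts behind the last 2 values. Psmb9 made up 15.7%, 3.70%, 26.7% and 0% of the counts of Psmb9 and Psmb6, and the 0 of 14 counts at 21 months allows a share of up to 23.2% by the exact interval. Psmb10 made up 50%, 52.1%, 34.4% and 44.7% of the counts of Psmb10 and Psmb7. Intervals of the 4 ages overlap in each of the 3 pairs. The sum of the Kupffer cell and macrophage markers was lowest at 3 months (719.6), and that of the leukocyte markers at 15 months (119). Both sums were highest at 21 months. The leukocyte sum was mostly Cd74 (47 of 64 counts at 15 months), while Ptprc had between 8 and 11 counts in each library. Of the 8 Kupffer cell and macrophage markers, 7 had a ratio of 21 over 3 months above 1 (Clec4f 1.01) and 1 below (Csf1r 0.940). The part of these cells in the share was not tested.

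The 10 partners of the immunoproteasome in interferon response and peptide loading, among them Tap1, Tap2, Tapbp, Erap1, B2m, H2-K1, H2-D1, Irf1 and Nlrc5, were compared in the same way. Of the 8 with enough counts, 3 passed the chi-square test, where 36.9% of all genes did, and none the age trend (0.108% of all genes). B2m, the light chain of class I molecules, had 6318, 5818, 2832 and 5014 counts, and its 15 month level was 0.796 times that at 3 months. Tapbp, which loads peptides, had 147, 81, 58 and 123 counts, with low levels at 9 and 15 months. H2-K1, a class I heavy chain, had 316, 374, 194 and 236 counts, with ratios over 3 months between 0.961 and 1.23.

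Unlike the beta ring, the 19S regulatory particle was level between 3 and 21 months, but it was lower at 9 and 15 months. Its 17 genes summed to 821, 725, 716 and 830.1 scaled CPM, and the ratio of 21 over 3 months was 1.01 (0.909 to 1.13). The ratios of 9 and 15 over 3 months were 0.884 (0.796 to 0.981) and 0.872 (0.770 to 0.986). The 6 ATPases had 372, 339, 397 and 410 (ratio 1.10, 0.943 to 1.29), and the 11 other subunits 449, 386, 319 and 420.4 (ratio 0.936, 0.807 to 1.09), with their low value at 15 months. The ratio of 15 over 3 months was 0.710 (0.592 to 0.850) for these 11 subunits, beside 0.711 (0.595 to 0.847) for the constitutive beta ring.

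Psmc6, an ATPase of the ring that unfolds substrates (chromosome 14, 45949504 to 45969367, plus strand, NCBIM37), was the most abundant member with 221, 204, 135 and 191 counts. This gave 231, 221, 250.4 and 257 scaled CPM, a spread no larger than counting noise (chi-square adjusted p = 0.53), and the ratio of 21 over 3 months was 1.11 (0.911 to 1.36). Psmc3 was the ATPase that differed between libraries, with 27, 22, 28 and 38 counts, or 28.2, 23.9, 51.9 and 51.0 scaled CPM (chi-square adjusted p = 0.013). Here both older libraries were above both younger ones, but no pair with the 3 month library passed (ratio of 21 over 3 months 1.81, 1.08 to 3.08, exact binomial adjusted p = 0.088). An exon of Psmc3 overlaps with Slc39a13 on the opposite strand. Psmc5 went the other way with 28, 15, 8 and 8 counts (chi-square adjusted p = 0.072), and Psmc1, Psmc2 and Psmc4 had ratios of 21 over 3 months between 0.940 and 1.29, with intervals that include 1. The windows at the 5’-end of Psmc1 match elsewhere in the genome to 78.8%, so that its counts are uncertain.

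Of the other 19S subunits, Psmd8, part of the lid, had 75, 48, 20 and 23 counts. This was 78.3, 52.0, 37.1 and 30.9 scaled CPM, lower at each step of age (chi-square adjusted p = 0.00070). It was 0.474 times the 3 month level at 15 months (0.274 to 0.784, exact binomial adjusted p = 0.017) and 0.394 times at 21 months (0.236 to 0.637, exact binomial adjusted p = 0.00073). Psmd12, also in the lid, had 24, 17, 1 and 19 counts, so that it was low in the 15 month library alone. The ratio of 15 over 3 months was 0.0740 (0.0018 to 0.454, exact binomial adjusted p = 0.0036), and that of 21 over 15 months was 13.8 (2.19 to 572, exact binomial adjusted p = 0.0071), where 5.87% of all genes were higher. Without the 15 month library, the chi-square test of Psmd12 gave an adjusted p of 0.65.

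Psmd14, the enzyme that removes ubiquitin chains from the substrate, had 27, 26, 15 and 19 counts, or 28.2, 28.2, 27.8 and 25.5 scaled CPM. Psmd2, Psmd3 and Psmd4, the last a receptor for ubiquitin, had ratios of 21 over 3 months of 0.772, 0.657 and 0.804, and Psmd1, Psmd6 and Psmd11 had 1.29, 1.90 and 1.43. None of these 6 passed, and the interval of Psmd6 was the only one of them that leaves out 1 (1.12 to 3.30, exact binomial adjusted p = 0.076). The windows at the 5’-ends of Psmd11 match elsewhere in the genome to 64.4%, so that its counts are uncertain. Psmd13 (79, 61, 31 and 59 counts) was close to 1 (0.961, 0.674 to 1.36), and Psmd7 had 31 counts in all, below the minimum.

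**Figure D3:**
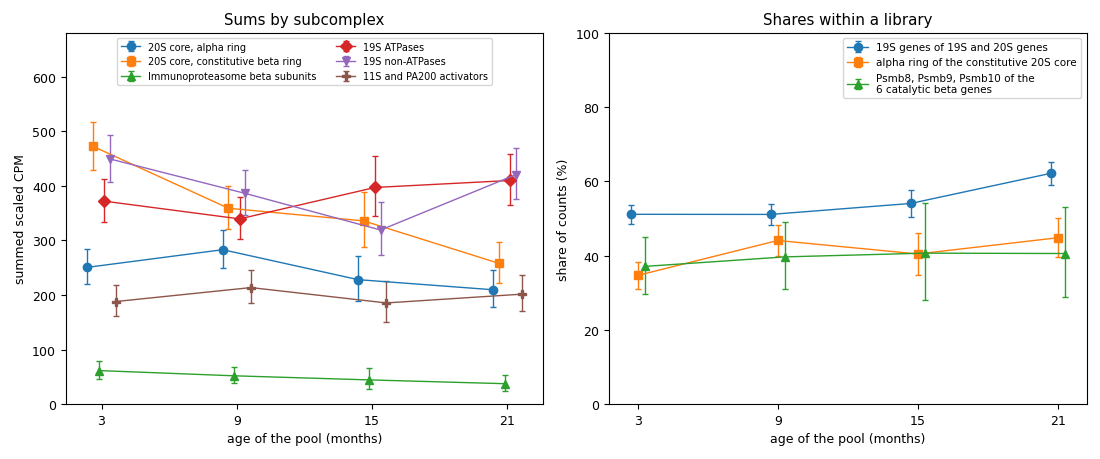
Left, summed scaled CPM of 6 subcomplexes (y axis) against the age of the pool in months (x axis), with 95% exact Poisson intervals; right, shares of counts within a library in percent (y axis) against age, with 95% exact binomial intervals; points are shifted slightly along the x axis. The constitutive beta ring descends from 472 to 258, and the share of the 19S genes lies between 51.1% and 54.1% in the 3 younger pools and at 62.2% at 21 months.

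As both particles join in the 26S proteasome, the counts of the 19S genes were set against those of the 20S genes, alpha, beta and immunoproteasome genes included. This share was chosen after the values had been seen. The 19S genes made up 51.1% of the counts at 3 months (48.6 to 53.7), 51.1% at 9 months (48.4 to 53.8), 54.1% at 15 months (50.3 to 57.8) and 62.2% at 21 months (59.1 to 65.2). The interval at 21 months does not overlap with the others. Without Psmb2 and Psmb4 the shares were 59.7%, 56.4%, 60.0% and 66.0%, and the interval at 21 months (62.8 to 69.0) stayed above those at 3 months (57.0 to 62.4) and 9 months (53.5 to 59.2), but overlapped with that at 15 months (56.1 to 63.8). Without Psmc6 they were 42.9%, 42.1%, 43.4% and 53.2%. With only those genes whose 5’-ends match no other place they were 53.8%, 53.0%, 57.5% and 67.8%. The share of the alpha ring in the constitutive core, chosen likewise, was 34.7% at 3 months (31.1 to 38.4), 44.1% at 9 months (40.04 to 48.2), 40.5% at 15 months (34.9 to 46.2) and 44.8% at 21 months (39.5 to 50.2). Its interval at 3 months lies below those at 9 and 21 months and overlaps with that at 15 months.

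The activators summed to 188, 214, 185 and 201 scaled CPM. Psme1, which forms the 11S ring PA28 with Psme2, had 97, 75, 55 and 74 counts, or 101, 81.3, 102 and 99.4 scaled CPM, and did not pass (chi-square adjusted p = 0.54). Its partner Psme2 had 5, 12, 2 and 1 counts, so that the partners were unequal in every library. Psme3, the nuclear form of the ring, had 38, 53, 17 and 16 counts, or 39.7, 57.5, 31.5 and 21.5 scaled CPM, and passed (chi-square adjusted p = 0.0097), while its ratio of 21 over 3 months of 0.542 (0.282 to 0.995) did not (exact binomial adjusted p = 0.15). Psme4, the PA200 activator, had 40, 57, 26 and 59 counts, or 41.8, 61.8, 48.2 and 79.2 scaled CPM. It was the only member called higher than at 3 months in any comparison (1.90 times at 21 months, 1.25 to 2.91, exact binomial adjusted p = 0.015), where 7.72% of all genes were higher. The share of Psme1 and Psme2 in the counts of the 3 PA28 genes, also chosen after the values had been seen, was 72.9%, 62.1%, 77.0% and 82.4%. Psme2b-ps, a pseudogene symbol, had 3, 9, 4 and 5 counts. Of its windows at the 5’-end, 53.0% match elsewhere in the genome, so that its counts are uncertain.

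Psmf1, known as PI31 and able to bind and inhibit the 20S core, had 27, 11, 1 and 4 counts. This was 28.2, 11.9, 1.85 and 5.37 scaled CPM (chi-square adjusted p = 0.00019), and the 3 month library was above all others. The ratio of 15 over 3 months was 0.0658 (0.0016 to 0.399, exact binomial adjusted p = 0.0015), and that of 21 over 3 months 0.191 (0.0484 to 0.547, exact binomial adjusted p = 0.0050). Psmf1 was not among the genes of the main trend fit, because its counts were too low for the filter. With a minimum of 40 counts as the filter, its slope was -2.87 on the log2 scale over 18 months (edgeR adjusted p = 0.577). With no filter it was -2.88 (edgeR adjusted p = 0.982).

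The chaperones that help to build the particles were low. For the 19S particle, Psmd9 had 14, 10, 10 and 8 counts, and Psmd5 and Psmd10 had 27 and 15 in all. For the 20S core, Psmg2 had 13, 13, 13 and 12 counts, an even row that with the smaller 15 month library gave 13.6, 14.1, 24.1 and 16.1 scaled CPM (chi-square adjusted p = 0.52). Its partner Psmg1 had 3, 15, 0 and 8 counts, and Psmg3 and Psmg4 had 24 and 7 in all.

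Most of the single chi-square calls rest on particular libraries. Leaving out the 3 month library ended those of Psmd8 (adjusted p = 0.20), Psmb6 (adjusted p = 0.55) and Psme4 (adjusted p = 0.19). Without the 9 month library, Psma6 (adjusted p = 0.077), Psmc3 (adjusted p = 0.075) and Psme3 (adjusted p = 0.22) were lost, and without the 15 month library Psmb5 (adjusted p = 0.083) and Psmd12. Without the 21 month library, Psma6 (adjusted p = 0.084), Psmb6 (adjusted p = 0.073), Psme3 (adjusted p = 0.12) and Psme4 (adjusted p = 0.26) were lost. Psmb5 and Psmf1 each had enough counts for the test in 1 of these settings only, without the 15 month library. There Psmb5 was lost, as given above, and Psmf1 passed (chi-square adjusted p = 0.0036).

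Members that differed over 1.5-fold were counted without regard to a test. At 15 months, 13 of 35 members were lower than at 3 months by this measure and 3 higher, whereas 21.3% and 21.0% of all genes were. At 21 months, 11 were lower and 4 higher (20.4% and 18.8% of all genes), and at 9 months 7 were lower and 2 higher (18.5% and 18.8%). Between 21 and 15 months 3 were lower and 5 higher (21.0% and 20.4%). The lower members at 21 months included 4 of the 7 constitutive beta genes (Psmb2, Psmb4, Psmb5 and Psmb6), and no beta gene was higher.

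The variance of the centered log-ratio (clr, the natural log of a count over the geometric mean of its library) was used by the study to rank genes by stability over age, and was calculated over the 8704 genes with counts in every library. Of the 43 members among them, 23 had both a variance below and a mean above the median of all genes, where 38.1% of all genes did. All 23 are among the 35 members with at least 40 counts, and among all genes with that many counts 65.3% met both criteria, so that the members’ place (23 of 35) is close to that of genes of like abundance. Of the 35, 10 were above the median variance of all genes, while 69.3% of the genes with at least 40 counts were below it. The median variance was 0.0731 over these 35 members, and 0.0872 over all genes with at least 40 counts. Psmc6, Psma6 and Psme1 had the highest means (2.62, 2.14 and 1.70).

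Among the members with at least 40 counts, Psmd14 (variance 0.0030), Psmc6 (0.0036) and Psme1 (0.011) had the lowest variances. For Psmc6 and Psme1 the variance was below what counting alone would give, taken as the mean of the reciprocal counts (0.0055 and 0.014), as it was for Psmd14 (0.049). At this depth their counts can thus not be told from even levels. The highest variances in the same set were those of Psmd12 (1.66), Psmf1 (1.41) and Psmb5 (0.443), each with a library of 3 counts or fewer, followed by Psmb2 (0.434), which had at least 16 counts in every library.

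**Figure D4:**
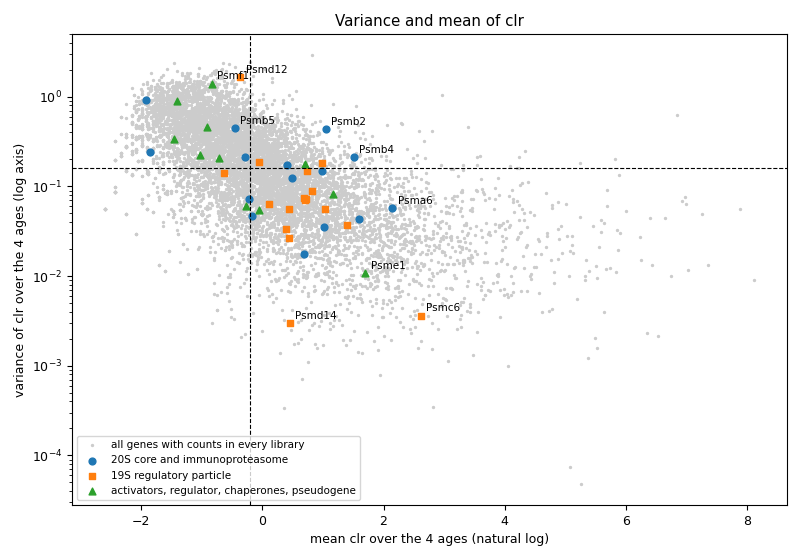
Variance of clr over the 4 ages (y axis, logarithmic) against the mean of clr (x axis, natural log) for 8704 genes (grey) and the 43 proteasome genes among them (coloured by group); dashed lines are the medians of all genes. Psmc6 is at the lower right with a variance of 0.0036, Psmd12 and Psmf1 are at the top with 1.66 and 1.41, and 23 members lie below and to the right of both lines.

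The genes around the proteasome were examined with lists from the same pathway. Of proteins that assist it, such as Adrm1, Shfm1, Pomp, Usp14, Uchl5, Ubqln1, Ubqln2, Ubqln4, Rad23b, Zfand5, Zfand2a and Txnl1, 7 had enough counts and 3 passed the chi-square test (36.9% of all genes did). Pomp, the chaperone that matures the beta ring, had 47, 44, 10 and 22 counts, with a 15 over 3 month ratio of 0.378 (chi-square adjusted p = 0.027). Zfand5, an activator of the proteasome, had 14, 16, 28 and 17 counts and was highest at 15 months (3.55 times the 3 month level, chi-square adjusted p = 0.00034).

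In the branch by which Nrf1 (Nfe2l1) controls proteasome genes, with Nfe2l2, Ddi2, Ngly1, Vcp, Mafg and Mafk, none of the 5 genes with enough counts passed the chi-square test or the trend. Of all genes, 36.9% and 0.108% did, and 5 genes are too few to set against this background. Nfe2l1 itself had 43, 49, 22 and 48 counts (chi-square adjusted p = 0.31), and Ddi2, the protease that activates it, 100, 73, 53 and 48 counts (chi-square adjusted p = 0.067). In the exact binomial test of 21 against 3 months, Ddi2 was the 1 gene of this list called lower (0.617 times, adjusted p = 0.040), where 8.27% of all genes were. Among 12 genes of ubiquitin and its activation, 9 had enough counts, 4 passed the chi-square test (36.9% of all genes) and none the trend (0.108% of all genes). Uba1, the enzyme that activates ubiquitin, had 121, 140, 104 and 136 counts. The ratios of Uba1 over 3 months were 1.201, 1.53 and 1.45. The conjugating enzyme Ube2l3 had 15, 26, 23 and 10 counts, and Ube2d3 28, 12, 15 and 9.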

How the data were processed

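Per gene symbol, the deposited tables give the raw count of reads in 1 library, without normalisation. The authors removed uncapped RNA, sequenced 35 base forward reads from the capped 5’-ends on 1 SOLiD lane and mapped them to mm9 with the CLC Genomic workbench (similarity and length fraction 0.95). The submitters' processing notes name HTSeq, with a version not given in the sources used here, and whether counting used the strand is not given either. Rows that name no gene were left out: not uniquely aligned records were 72.2% to 76.7% of each library, records on no feature 15.5% to 19.0%, and ambiguous ones 0.377% to 0.473%.

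The total count per library ranged from 525772 to 958586, and intervals and floors cover counting error only, since reads without molecular identifiers are not independent molecules. Pools were not repeated, so p-values of 2 libraries compare those libraries. Library sizes were scaled with TMM (edgeR 4.0.16, R 4.3.3), and CPM values refer to them. The age trend used edgeR's quasi-likelihood test with filterByExpr and 2 residual degrees of freedom. The chi-square test (3 degrees of freedom) and the two-sided exact binomial test covered the 5090 genes with at least 40 counts in all, each with Benjamini-Hochberg adjustment over them and a threshold of 0.05. Ratios have Clopper-Pearson and sums exact Poisson intervals. DESeq2 1.42.0 was the alternative, with other scales, filters and each library left out. Calculations used Python 3.11.15 with scipy 1.17.1. The code was also run on simulated counts with large changes, which does not show how well smaller changes in the members would be found.

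Positions and overlaps come from GENCODE M1 on NCBIM37, the same assembly as mm9, where all 53 members were found. The first 100 bases of coding transcripts were cut into windows of 35 bases, which were looked up genome-wide, allowing 1 mismatch. No second place was found for 36 of the 50 members with windows. Promoters come from RefSeq (GRCm38.p6) and are not converted between builds. Psma8, Psmb1, Psmb2, Psmb5-ps, Psmb6-ps, Psmb7, Psmb7-ps2, Psmc3, Psmd3, Psmd7, Psme2b-ps and Psmg2 were not matched there. The members and all gene lists were chosen with earlier results of these data known. Named with all values were members past a test, the catalytic, PA28 and most abundant subunits, and those with the highest and lowest variance of clr; the remaining members and the named Nrf1 branch genes were added so that each group is accounted for. Ecm29 and Adgre1, listed beside the other pathway and marker genes, were not used here for lack of a matching symbol. Some genes of the pathway and marker lists are counted in the totals and not reported here by name.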

Additional observations from a re-analysis of the deposited data

How the results depend on the processing

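No paired analysis was possible because each age has 1 library. The number of members called by the trend was 0 in every setting run, while the number of all genes called, 6, was 2 with library totals, 2 with a minimum of 40 counts and 0 with DESeq2 (123 genes had an unadjusted p under 0.05 there), and 9 to 23 when a library was left out. The chi-square calls among members, 11, went to 7 with a minimum of 100 counts, where 19 members were tested, and to between 5 and 9 when a library was left out. The other scales kept the number within 1.5 times. Of the pairs of ages, 9 against 3 months gave 2 members with a minimum of 10 counts in place of 1, and 15 against 3 months gave 3 with a minimum of 100 in place of 6. The shares of all genes called by the chi-square and exact binomial tests in these settings are not given here. Under library totals or a minimum of 10 counts, the calls of Psma6 (21 over 3 months), Psmb3 and Psmb5 (both 15 over 3 months) were lost, at unchanged direction.

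Settings added after the values were seen changed what was summed. Without Psmb2 and Psmb4, the ratio of 21 over 3 months was 0.931 for all members and 0.752 for the constitutive beta ring, and the 19S shares were 59.73%, 56.36%, 60.03% and 65.96% at 3, 9, 15 and 21 months. Without Psmc6 these were 42.93%, 42.08%, 43.35% and 53.18%, and with genes free of windows that match elsewhere 53.78% at 3 months and 67.82% at 21 months.

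The immunoproteasome share was recomputed with other genes, as planned. Without Psmb8 and Psmb5 it was 35.29%, 38.78%, 31.91% and 32.69% at 3, 9, 15 and 21 months. Both older pools were thus below the 3 month pool, whereas in the main share they were above it, and the intervals overlap. This setting leaves out Psmb5, whose counts are uncertain. Without Psmb9 and Psmb6 the share was 47.22%, 50%, 45.45% and 50.91% at the same ages. Without Psmb10 and Psmb7 it was 27.47%, 22.0%, 48.15% and 35.48%. With all 20S genes as the denominator it was 7.856%, 7.5%, 7.317% and 7.447%. With at least 10 counts in every library, 6 of the 26 members left met both clr criteria, since the medians then come from abundant genes only. The share of all genes that met both in this setting is not given here, so 6 of 26 is not set against a background. There the median variance of members (0.06378) was above that of all genes (0.05684). No call changed its direction. The median trend slope of members turned positive without the 3 month library. The ratio of 21 over 15 months crossed 1 for the sum of members with library totals (0.9932, against 1.007) and for their median with a minimum of 10 counts (0.9985, against 1.014).

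Depth sets the limit for the 13 members with 1 to 39 counts, among them Psmb9 and 4 alpha genes, which were not tested, and for the immunoproteasome share, whose interval at 15 months (59 counts) ran from 28.1% to 54.3%.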
